A study of Homo sapiens with 12 samples.

Results

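The 8 genes described here encode HuR and other proteins that bind AU-rich elements in messenger RNA. They were chosen by symbol, as the rows named ELAVL1, HNRNPD, KHSRP, TIA1, TIAL1, ZFP36, ZFP36L1 and ZFP36L2, and were 8 of the 23615 genes in the deposited tables. All 8 passed the filter on low counts, with 16005 genes tested in all. RNA sequencing was done on HEK293T cells, a human embryonic kidney line, in 12 libraries. One line, shHuR, carried a short hairpin RNA against ELAVL1, the gene of HuR, and the other, shControl, carried a control hairpin. Both lines had been transduced with lentivirus and selected with puromycin, and each was 1 selected population with 1 hairpin, so the hairpin and the history of the population cannot be told apart. Each line was left untreated, given 25 µM of an alkyne form of the lipid aldehyde 4-hydroxynonenal (HNE) for 18 h, or given 225 µM hydrogen peroxide (H2O2) for 18 h. Each of the 6 groups held 2 replicates, described by the submitters as biological. The series title names the question as what HuR contributes to the transcriptome of cells under electrophile and oxidant stress.

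AU-rich elements are stretches of adenine and uridine, often built around the pentamer AUUUA, in the 3′ untranslated region (3′ UTR) of short-lived mRNAs such as those of cytokines and growth regulators. The proteins that bind them pull in different directions. HuR generally stabilizes its targets, whereas KHSRP (KSRP) and the zinc-finger proteins of the ZFP36 (tristetraprolin) family recruit the enzymes that shorten the poly(A) tail and degrade the message. HNRNPD (AUF1) has been described in both roles, and TIA1 and TIAL1 (TIAR) repress translation and take part in stress granules.

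The antisense arm of the shHuR hairpin and its match in ELAVL1 are given first, since they define the line. In the antisense arm, capitals mark bases 2 to 8, the seed; in the gene sequences, capitals mark bases that differ from the hairpin's target arm at the best ungapped match.
antisense arm: tGCAAACTtcactgtgatggg
ELAVL1: cccatcacagtgaagtttgca
ELAVL2: ccAatcacTgtAaagtttgcT
ELAVL3: cccatcacagtCaagttCgcG
HNRNPD: cccTtTacagAAaagtttgcT
The exact match lay in the coding sequence of ELAVL1, in exon 5 of 6, at chr19:7967669-7967689 on the minus strand of GRCh38. Among the GENCODE 29 transcripts, the full 21 bases occurred in 1 gene, ELAVL1. The closest stretch in the coding sequence of ELAVL2, at chr9:23701483-23701503 on the minus strand, differed at 4 positions, C3A, A9T, G12A and A21T, counted from the 5′ end of the target arm with the arm's base first. ELAVL3 differed at 3 positions (G12C, T18C and A21G; chr19:11458165-11458185, minus strand, coding sequence). Among the other 7 of the 8 genes, the closest stretch was in the 3′ UTR of HNRNPD (chr4:82352615-82352635, minus strand) with 5 differences, A4T, C6T, T11A, G12A and A21T. The rest had 8 or 9 differences. The seed match AGTTTGC, sought on the sense strand, occurred 1 time in the 3′ UTR of HNRNPD, 1 time in that of TIA1 and in none of the other 6; 12.7% of 13517 tested genes with a 3′ UTR held it.

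The libraries held 24855946 to 29907258 counts each, and edgeR's biological coefficient of variation was 8.32%. Among the markers checked for this cell line, VIM had 175 to 263 FPKM (fragments scaled to transcript length and library depth), KRT18 24.0 to 31.3, NEFL 17.8 to 29.8, KRT8 4.08 to 7.04 and NEFM 1.08 to 3.78. The kidney factor PAX2 was nearly absent, at 0.0365 to 0.124 FPKM from 4 to 14 counts. Of the genes of other tissues, HBB and INS were listed at 0 and PTPRC had at most 0.0168 and ALB at most 0.105 FPKM. In bulk RNA, a lower level in every cell and a loss in some of the cells cannot be told apart.

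On the per-length FPKM scale, the 8 genes spanned more than 2 orders of magnitude. KHSRP was the highest at 56.5 ± 12.7 FPKM (SD, n = 12), followed by HNRNPD at 39.4 ± 2.64, TIA1 at 29 ± 1.53, TIAL1 at 15.1 ± 0.644 and ELAVL1 at 13.7 ± 1.96. The zinc-finger genes were at the bottom, with 5.88 ± 0.675 FPKM for ZFP36L2, 1.94 ± 0.312 for ZFP36L1 and 0.226 ± 0.0912 for ZFP36. ZFP36, which gives the family its name, was read from only 4 to 16 counts per library, so its fold changes are the least precise of the 8. Neighbours in this order overlapped in 2 places. In shControl, KHSRP (36.0 to 54.3 FPKM) overlapped HNRNPD (35.1 to 44.4), and TIAL1 (15.2 ± 0.750 FPKM, SD, n = 6) was not separated from ELAVL1 (15.5 ± 0.794). In shHuR, KHSRP (59.8 to 77.7 FPKM) lay above HNRNPD (37.9 to 41.9) in every library, and TIAL1 (14.2 to 15.9) above ELAVL1 (11.6 to 12.5).

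ELAVL1, the hairpin's target and the gene of HuR (chr19:7958579-8005659, minus strand), was lower throughout the shHuR line, with no overlap between lines. On the scale of counts scaled to library size with TMM (CPM), the untreated shControl libraries had 90.5 and 86.0 CPM, the HNE-treated 92.7 and 97.9, and the H2O2-treated 92.2 and 99.4. The shHuR libraries had 70.4 and 70.1 CPM untreated, 69.3 and 73.1 with HNE, and 70.6 and 74.5 with H2O2. The remaining level was therefore narrow, 71.3 ± 2.01 CPM (SD, n = 6) against 93.1 ± 4.91 in shControl. The mean difference of -21.8 CPM, or 23.4% lower, had an exact two-sided permutation p of 0.00926, the smallest that the 216 arrangements of line labels within treatments can give. In edgeR's quasi-likelihood test over all treatments, the log2 fold change was -0.38 (SE 0.0405, 95% interval -0.47 to -0.30, adjusted p = 2.6e-06). Over all genes, 1451 of 16005 (9.07%) had a line log2 fold change at least as low.

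**Figure D1:**
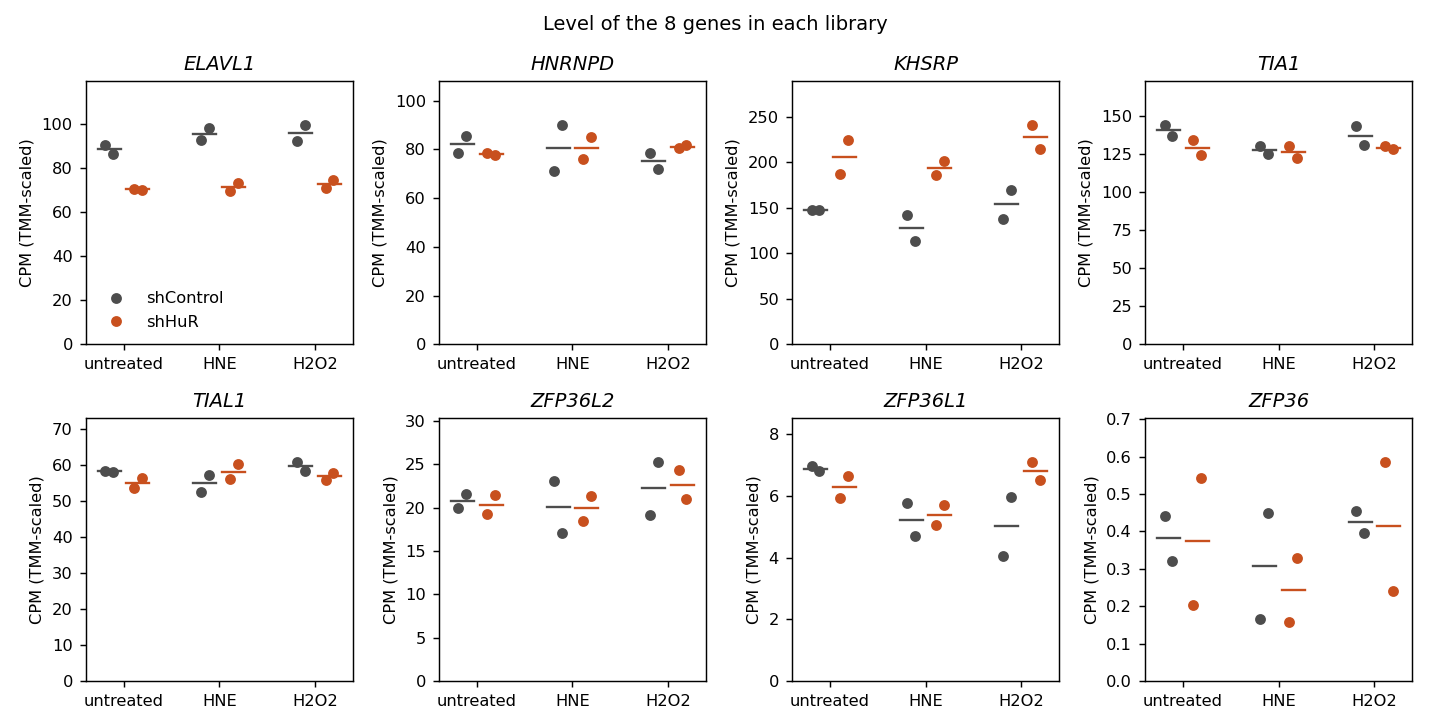
Level of each of the 8 genes in every library, in TMM-scaled CPM on a linear axis from 0, by treatment and line; each point is 1 library and each bar the mean of 2. The lines are apart in all treatments for ELAVL1 (69.3 to 74.5 CPM in shHuR, 86.0 to 99.4 in shControl) and KHSRP (186 to 241 and 113 to 170), and overlap for the other 6 genes.

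KHSRP, the KH-domain protein that promotes decay of AU-rich mRNAs (chr19:6413348-6424794, minus strand), was the other member that differed, and it rose. The shControl libraries had 148 and 148 CPM untreated, 142 and 113 with HNE, and 138 and 170 with H2O2. The shHuR libraries had 187 and 224 CPM untreated, 186 and 201 with HNE, and 241 and 214 with H2O2. The lowest shHuR library was thus above the highest shControl library, although replicates of a group differed more than for ELAVL1, with a within-group coefficient of variation of 10.6% against 3.97%. KHSRP averaged 143 ± 18.6 CPM in shControl and 209 ± 21.7 in shHuR (SD, n = 6). It rose 1.46-fold, or by 0.55 on the log2 scale (SE 0.0649, 95% interval 0.41 to 0.68, adjusted p = 9.1e-06 in edgeR's test). Over all genes, 559 of 16005 (3.49%) had a line log2 fold change at least as high. The KHSRP gene contains the microRNA gene MIR3940 on the same strand, which has its own row in the count table.

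Calls between these lines were common: 29.9% of all genes tested were called over all treatments, 14.1% higher and 15.9% lower in shHuR, and 2 of the 8 members were called, 1 in each direction. The 6 libraries of one line were all above or all below the other 6 for 12.1% of genes tested, and for 2 of the 8 members, ELAVL1 and KHSRP. The median log2 fold change was -0.01 over the 8 members and 0 over all genes. ELAVL1, the hairpin's own target, is one of those 2, and the share of members called was not above that of all genes.

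The other 6 members were not called over all treatments. HNRNPD, which binds AU-rich elements as several isoforms (chr4:82352498-82374503, minus strand), had 71.1 to 90.1 CPM in shControl and 76.1 to 85.0 in shHuR, a log2 fold change of 0.01 (95% interval -0.11 to 0.13, adjusted p = 0.899). For this gene the interval leaves out a change of the size seen for ELAVL1 or KHSRP. TIA1 (chr2:70209444-70248660, minus strand) had 135 ± 7.68 CPM in shControl and 128 ± 4.18 in shHuR (SD, n = 6), a log2 fold change of -0.08 (-0.16 to 0.01, adjusted p = 0.166). Its paralog TIAL1 (chr10:119571802-119597029, minus strand) had 57.6 ± 2.81 and 56.7 ± 2.14 CPM, a log2 fold change of -0.02 (-0.12 to 0.07, adjusted p = 0.753). TIA1 overlaps C2orf42 on the same strand in the annotation, and antisense genes lie over ELAVL1 and HNRNPD; whether the counting used strand is not given in the sources used here.

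The zinc-finger genes, whose proteins recruit the deadenylase complex, also overlapped between lines. ZFP36L2 (chr2:43222402-43226609, minus strand) averaged 21.0 CPM in both lines, with a log2 fold change of -0.01 (-0.18 to 0.17, adjusted p = 0.966). ZFP36L1 (chr14:68787660-68796253, minus strand) had 5.71 ± 1.15 CPM in shControl and 6.17 ± 0.737 in shHuR, a log2 fold change of 0.12 (-0.13 to 0.37, adjusted p = 0.503). ZFP36 (chr19:39406813-39409412, plus strand) had 12 and 9 counts in untreated shControl, 5 and 11 with HNE, and 12 and 11 with H2O2; in shHuR it had 5 and 16, 4 and 9, and 16 and 7. Its log2 fold change of -0.10 carried a 95% interval from -0.92 to 0.72 (adjusted p = 0.881), so even a change as large as that of KHSRP was not detectable at this depth.

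Within each treatment the same 2 members, ELAVL1 lower and KHSRP higher, were called between the lines. The log2 fold change of ELAVL1 was -0.33 without treatment (SE 0.0708, adjusted p = 0.0126), -0.42 under HNE (SE 0.0708, adjusted p = 0.00334) and -0.40 under H2O2 (SE 0.0706, adjusted p = 0.00393). For KHSRP, with an SE of 0.120 throughout, it was 0.47 in untreated cells (adjusted p = 0.0290), 0.61 under HNE (adjusted p = 0.00826) and 0.56 under H2O2 (adjusted p = 0.0119). The share of all genes called was 7.98% in untreated cells, 8.27% with HNE and 7.19% with H2O2. These calls rest on 2 libraries against 2. The untreated ELAVL1 call was lost without any 1 of the 4 libraries compared (adjusted p from 0.0625 to 0.131), the HNE call without shHuR HNE replicate 1 (0.0631) and the H2O2 call without shHuR H2O2 replicate 1 (0.0740). The KHSRP call was lost in untreated cells without shControl replicate 1 (0.149), shControl replicate 2 (0.172) or shHuR replicate 2 (0.248), with HNE without shHuR replicate 2 (0.103), and with H2O2 without replicate 1 of shControl or of shHuR (0.134 each). ZFP36L1 with H2O2 had a log2 fold change of 0.44 (SE 0.19, unadjusted p = 0.0361, adjusted p = 0.184). This value rests on which shControl H2O2 library is kept: it was 0.20 without replicate 1 (adjusted p = 0.681) and 0.75 without replicate 2 (adjusted p = 0.0446).

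**Figure D2:**
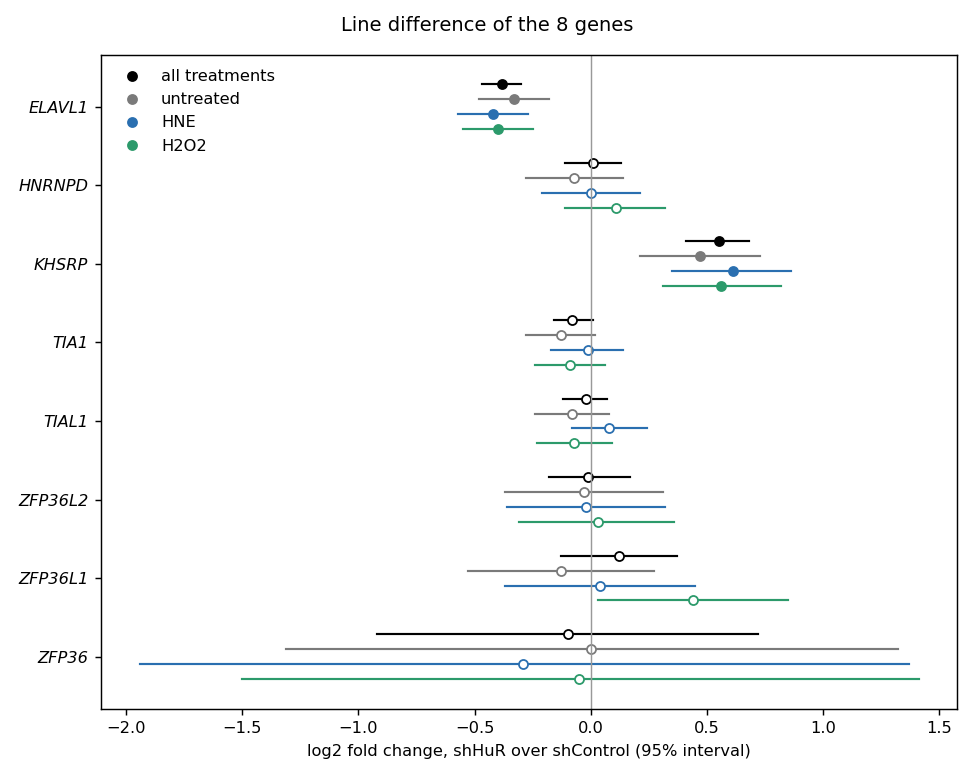
Log2 fold change of the 8 genes, shHuR over shControl, averaged over treatments (black) and within each treatment (grey untreated, blue HNE, green H2O2), with 95% intervals; filled points passed an adjusted p of 0.05. ELAVL1 lies between -0.42 and -0.33 and KHSRP between 0.47 and 0.61 in the 3 treatments, and the interval of ZFP36 is the widest.

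The levels of the members relative to each other shifted with these 2 genes. In shControl the KHSRP level was 2.21 to 3.30 times that of ELAVL1 in FPKM, and in shHuR 5.10 to 6.57 times. For HNRNPD the FPKM ratio to ELAVL1 was 2.16 to 2.95 in shControl and 3.24 to 3.43 in shHuR. Of the summed FPKM of the 8 genes, ELAVL1 made up 10.1 ± 0.727% in shControl and 7.03 ± 0.325% in shHuR, and KHSRP 29.8 ± 3.04% and 39.4 ± 2.27% (SD, n = 6). The shares of the zinc-finger genes were 3.83 ± 0.490% and 3.46 ± 0.171% for ZFP36L2, 1.21 ± 0.223% and 1.18 ± 0.0968% for ZFP36L1, and 0.152 ± 0.0461% and 0.126 ± 0.0617% for ZFP36, of a sum that includes KHSRP. These ratios and shares come from the same libraries as the tests above and are no separate test.

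ELAVL2, the paralog of HuR that was also expressed here, fell further than ELAVL1 in shHuR. It had 36.6 to 46.2 CPM in shControl (median 41.9) and 24.0 to 29.5 in shHuR (median 26.2), with no overlap, and a log2 fold change of -0.68 (SE 0.0636, adjusted p = 7.04e-07), or 0.625-fold. At its best match to the hairpin's target arm, printed above, it carries 4 differences and keeps the seed match. The part of that match in the fall was not tested. The neuronal paralogs ELAVL3, with 0 to 7 counts per library, and ELAVL4, with 0 to 1, were too low to test. Across ELAVL1 and ELAVL2 the deposited counts may divide reads of similar sequence in a way that is not given in the sources used here.

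KHSRP and ELAVL1 lie on the same arm of chromosome 19, so the genes beside them were examined. For each gene, the nearest 10 tested genes on each side were taken. Of these 20 around KHSRP, 6 were higher and 3 lower in shHuR, beside 14.1% higher and 15.9% lower of all genes. The tested genes directly beside KHSRP, GTF2F1 (0.16) and SLC25A23 (0.26), were both called higher. The median log2 fold change of the 20 was 0.02. Values ran from -0.94 for CD70, which encodes a ligand of the tumour necrosis factor family, to 0.51 for the tubulin gene TUBB4A. The last 2 genes are named as the extremes. Around ELAVL1, 2 of 20 were higher and 0 lower, with a median of -0.03 and a range from -0.45 to 0.25. The median over 432 tested genes in the first 20 megabases of the chromosome was -0.01. The KHSRP estimate of 0.55 was the highest beside its 20 neighbours, but its interval of 0.41 to 0.68 takes in the TUBB4A value of 0.51. ELAVL1, with a neighbour at -0.45 that did not pass the test, was the only called fall in its surroundings. The neighbours were examined after the changes of KHSRP and ELAVL1 were known. Whether a change of the whole region plays a part was not tested.

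**Figure D3:**
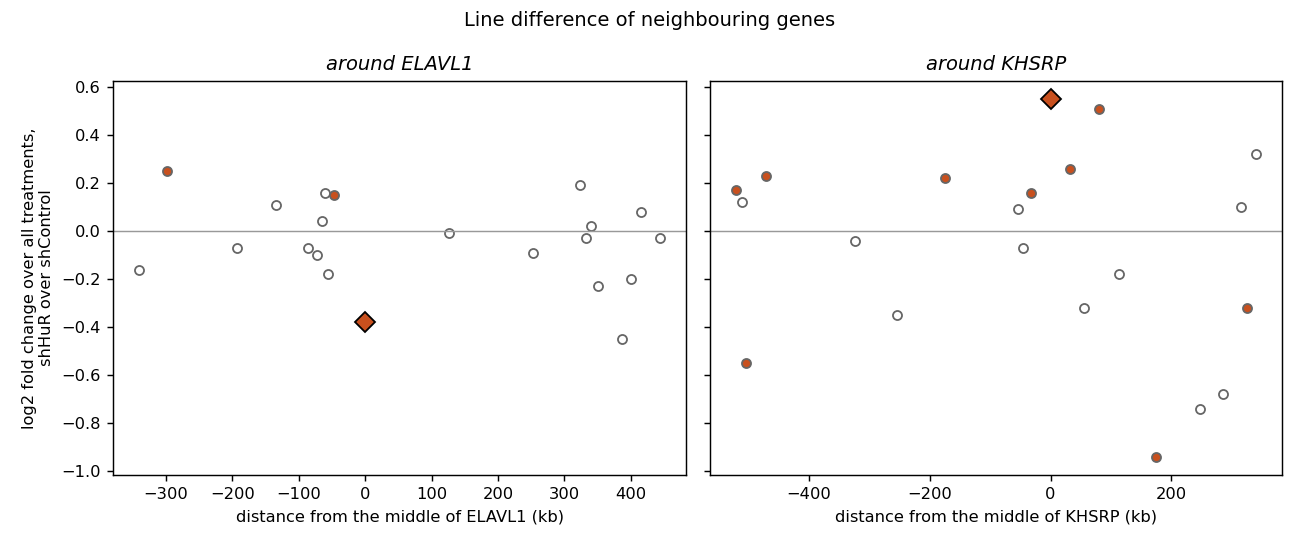
Line log2 fold change over all treatments of 20 tested genes, 10 on each side, around ELAVL1 (left) and KHSRP (right), against distance in kilobases. Diamonds are the 2 genes themselves and filled symbols passed an adjusted p of 0.05. The neighbours lie on both sides of 0, with medians of -0.03 and 0.02. Around KHSRP, 6 of 20 were called higher and 3 lower.

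HNE and H2O2 left all 8 members uncalled at 18 h. Over both lines, 0.247% of all genes tested were called for HNE and 0% for H2O2 by edgeR's test, against 1942 and 861 genes at an unadjusted p under 0.05. DESeq2 called 181 and 3 genes, limma on log2(FPKM + 1) called 2 and 2, and neither called a member. The limma fit tested 7 members, without ZFP36. For HNE, ELAVL1 had a log2 fold change of 0.07 (95% interval -0.05 to 0.18, adjusted p = 0.642) and KHSRP of -0.15 (-0.31 to 0.02, adjusted p = 0.457). Those of HNRNPD (0.01), TIA1 (-0.08), TIAL1 (0) and ZFP36L2 (-0.03) were smaller still than that of KHSRP, and that of ZFP36 was -0.48 with an interval from -1.55 to 0.58. ZFP36L1 was the member with an unadjusted p under 0.05, at -0.31 (SE 0.120, unadjusted p = 0.0229, adjusted p = 0.323). Its untreated libraries had 6.98 and 6.80 CPM in shControl and 5.94 and 6.65 in shHuR, and its HNE libraries 5.77 and 4.70, and 5.07 and 5.72. In both lines the HNE libraries were below the untreated ones, and the share of all genes with such a separation was not counted. At an unadjusted p under 0.05 in edgeR's test, there were 1 of 8 members and 1942 of 15780 genes.

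For H2O2, the log2 fold change over both lines was 0.08 for ELAVL1 (95% interval -0.02 to 0.19, adjusted p = 0.902), 0.10 for KHSRP (-0.05 to 0.25, adjusted p = 0.916) and 0.13 for ZFP36L2 (-0.07 to 0.32, adjusted p = 0.917). HNRNPD had -0.03, TIA1 -0.02, TIAL1 0.04 and ZFP36 0.13, the last with an interval from -0.82 to 1.08. ZFP36L1 had -0.17 (-0.48 to 0.15, adjusted p = 0.939), with 4.06 and 5.97 CPM in treated shControl libraries and 7.12 and 6.52 in treated shHuR libraries. By line its H2O2 value was -0.46 in shControl (unadjusted p = 0.0308, adjusted p = 0.998) and 0.11 in shHuR. The shControl value was -0.21 without shControl H2O2 replicate 1 and -0.77 without replicate 2, and the shHuR value ran from 0.03 without untreated shHuR replicate 1 to 0.20 without replicate 2. The share of all genes called was 0.0187% for HNE in shControl, 0.0750% for HNE in shHuR, 0% for H2O2 in shControl and 0% for H2O2 in shHuR. At an unadjusted p under 0.05 these comparisons had 1872, 1433, 695 and 540 genes, and DESeq2 called 71, 107, 2 and 3.

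**Figure D4:**
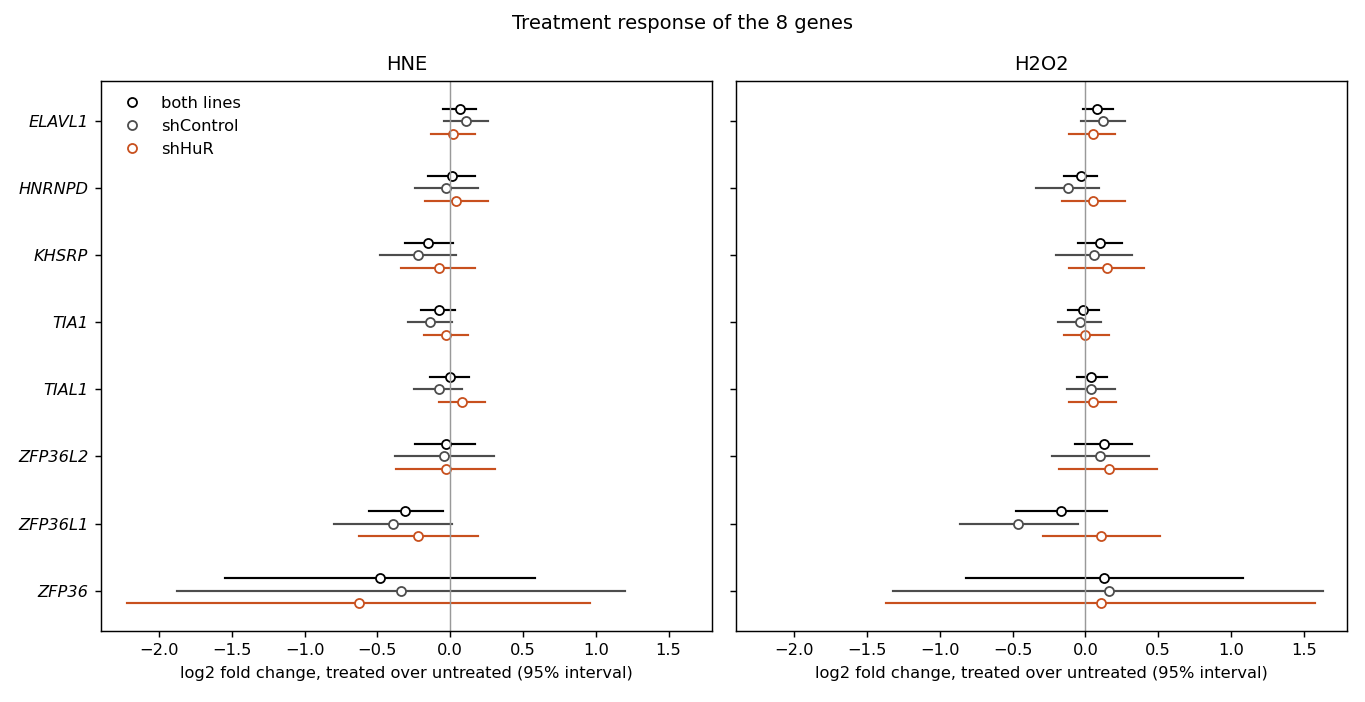
Log2 fold change of the 8 genes, treated over untreated, for HNE (left) and H2O2 (right), over both lines (black) and in shControl (grey) and shHuR (orange), with 95% intervals. No point is filled, since no member passed an adjusted p of 0.05; the HNE value of ZFP36L1 over both lines is -0.31.

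Whether the lines responded differently was tested directly with an interaction term, which called 0% of all genes for HNE and 0% for H2O2 in edgeR (1077 and 580 genes at an unadjusted p under 0.05; DESeq2 called 5 and 3, and no member). The difference in HNE response, shHuR minus shControl, was -0.09 log2 units for ELAVL1 (95% interval -0.31 to 0.12, adjusted p = 0.873) and 0.14 for KHSRP (-0.23 to 0.50, adjusted p = 0.889). For H2O2 it was -0.07 for ELAVL1 (-0.29 to 0.14) and 0.09 for KHSRP (-0.27 to 0.45), both with an adjusted p of 1. The ELAVL1 interval for HNE reaches -0.31, beside an average line effect of -0.38, so smaller differences in response were not detectable with 2 libraries a group. ZFP36L1 had an H2O2 interaction of 0.57 (SE 0.266, unadjusted p = 0.0512, adjusted p = 1), which was 0.32 without shControl H2O2 replicate 1 and 0.88 without replicate 2.

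Many of these genes carry AU-rich sequence themselves, and HuR is known to bind its own mRNA. In the longest annotated 3′ UTR of each gene, read on the sense strand with overlapping matches counted, ATTTA occurred 13 times in ELAVL1 (4904 bases), 13 in TIA1 (3275), 8 in ZFP36L1 (2828), 7 in TIAL1 (3863), 5 in ZFP36L2 (1917), 5 in ZFP36 (713), 2 in HNRNPD (1687) and 0 in KHSRP (764). The pentamer was in 72.9% of the 13517 tested genes with a 3′ UTR. Per length ZFP36 was the densest of the 8, at 7.01 per kilobase, followed by TIA1 at 3.97, ZFP36L1 at 2.83, ELAVL1 at 2.65, ZFP36L2 at 2.61, TIAL1 at 1.81 and HNRNPD at 1.19, against a median of 1.78 over 12531 genes with a 3′ UTR of at least 200 bases, of which 2.2% were at or above ZFP36. The nonamer TTATTTATT, which contains ATTTA and resembles the preferred site of the ZFP36 proteins, occurred 1 time in each of 4 members and in 9.23% of all genes. Its sites are printed with the nonamer in capitals, since they set the 3 zinc-finger genes and ELAVL1 apart from the other 4 by sequence.
ELAVL1: tttatgtatTTATTTATTgaagtgtga
ZFP36: atgacgactTTATTTATTctaatatga
ZFP36L1: actgttggaTTATTTATTttagaaatt
ZFP36L2: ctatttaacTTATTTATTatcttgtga
They lie at chr19:7961829-7961855 (minus strand), chr19:39409197-39409223 (plus), chr14:68788078-68788104 (minus) and chr2:43223449-43223475 (minus) of GRCh38. A run of 7 T was most frequent in TIAL1, at 48 overlapping matches, and was found in all 8 members and in 50.8% of all genes. A match describes the letters and does not show that a protein binds there.

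The enzymes with which these proteins work were read from gene lists. Each list is described by its counts beside the 14.1% of all genes called higher and 15.9% called lower over all treatments. Those shares cover genes of every level that passed the filter and were not matched to the level of the list genes. Of 20 genes of the CCR4-NOT complex and poly(A) shortening, which ZFP36 proteins recruit, 7 rose and 3 fell in shHuR, with a median log2 fold change of 0.06. Leaving out 1 library, this median ran from 0.05 to 0.08, and the number of genes called higher also moved. CNOT7, a catalytic deadenylase subunit, rose from 92.3 ± 4.81 to 121 ± 6.38 CPM (SD, n = 6; log2 fold change 0.39), and TOB1, an adaptor of the complex, rose by 0.35. PAN2, the catalytic subunit of the PAN2-PAN3 deadenylase, fell by 0.50 and CNOT6L, a further catalytic subunit of CCR4-NOT, fell by 0.30. Of 19 genes of decapping and 5′ decay, 8 rose and 0 fell, with a median of 0.16 against 0 over all genes. At an unadjusted p under 0.05 the list had 9 higher and 1 lower in edgeR, and DESeq2 called 9 higher and 0 lower. The median of the list ran from 0.12 to 0.16 when 1 library was left out. LSM6, a subunit of the ring that activates decapping, rose from 30.5 ± 2.85 to 39.8 ± 2.81 CPM (0.39), and EDC3, a decapping enhancer, rose by 0.30.

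Of 15 genes of the RNA exosome and its Ski cofactor, the 3′ to 5′ machinery that KHSRP recruits, 1 rose and 2 fell, with a median of -0.03. EXOSC3 rose by 0.18, EXOSC8 fell by 0.38 and the Ski subunit TTC37 fell by 0.16. Without shControl HNE replicate 2, 3 rose and 2 fell and the median was 0.05; DESeq2 called 2 in each direction. Of 35 tested genes among 37 other binders of AU-rich or U-rich RNA, 9 rose and 7 fell, with a median of 0.01. Leaving out 1 library, this median ran from -0.03 to 0.04, and the counts moved in both directions. PCBP4 rose by 0.58 and PCBP1 by 0.37, both poly(C)-binding proteins, while ELAVL2 fell by 0.68 and AUH, an RNA-binding mitochondrial hydratase, fell by 0.44. Of 29 genes for the transport, modification and protein ligands of HuR, 9 rose and 3 fell, with a median of 0.02. The 14-3-3 gene YWHAG rose by 0.36 and the importin KPNA2 by 0.28. ANP32E fell by 0.76, from 422 ± 26.4 to 249 ± 12.7 CPM. The adjusted p of each gene named here ran from 7.5e-09 for ANP32E to 0.0120 for EXOSC3 in edgeR's test. For HNE and for H2O2 over both lines, 0 of the 118 list genes tested were called in edgeR, with 13 and 7 at an unadjusted p under 0.05; DESeq2 called HNRNPA2B1 and XPO1 for HNE.

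**Figure D5:**
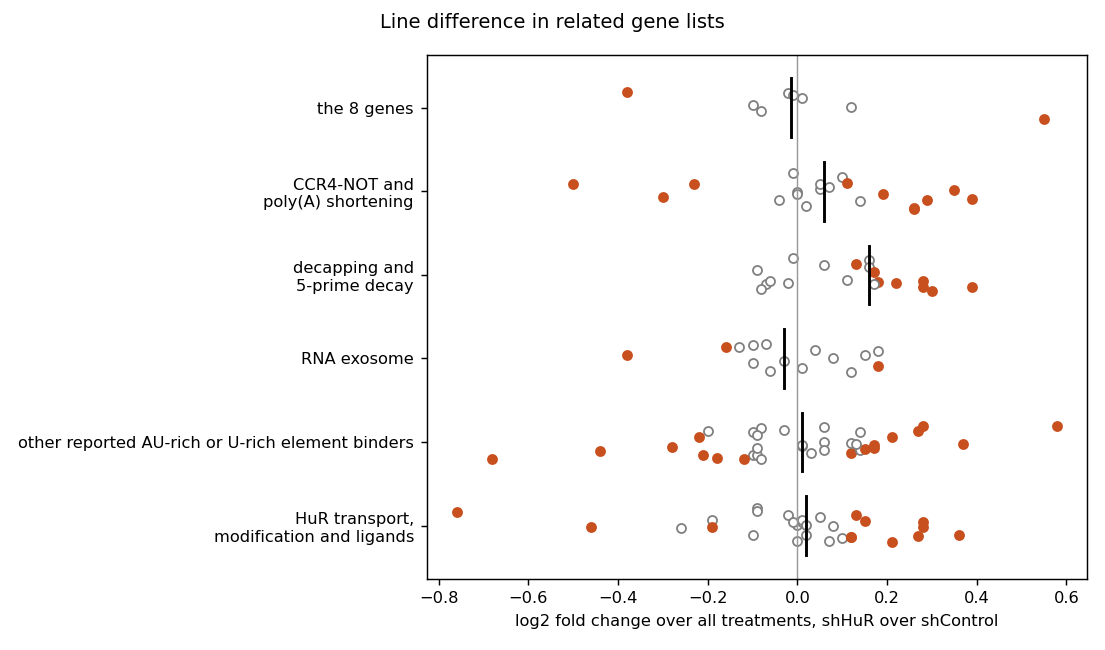
Line log2 fold change over all treatments of the 8 genes and of the genes of 5 related lists; each point is 1 gene, filled where it passed an adjusted p of 0.05, and the black bar is the median. The decapping list has its median at 0.16 with no filled point below 0, while the other medians lie between -0.03 and 0.06.

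By Pearson correlation of log2 CPM over the 12 libraries, among 11268 genes with a mean of at least 5 CPM, the genes most like ELAVL1 were PTGFRN (r = 0.971), RPL12 (0.971) and INSIG1 (0.970). All 3 were lower in shHuR, with line log2 fold changes of -0.30, -0.33 and -0.86. Within the 6 shControl libraries r was 0.76, 0.84 and 0.62, and within the 6 shHuR libraries 0.51, 0.53 and 0.52, so the likeness is mostly the step between lines. The libraries share line, treatment and scaling, and the values are a description.

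Among the members, some moved together between the replicates of a group. The pairs with the highest values are named first, and how often other gene pairs reach such values was not counted. For each library the deviation of log2 CPM from the mean of its group was taken. These deviations correlated at 0.95 between KHSRP and ZFP36L2, 0.92 between KHSRP and ZFP36L1 and 0.92 between ZFP36L1 and ZFP36L2. The value was 0.83 between HNRNPD and TIAL1. KHSRP and HNRNPD had -0.60, and ELAVL1 and KHSRP, the 2 genes that separate the lines, had 0. With the libraries' slope of expression on GC content, also taken from its group mean, the deviations correlated at 0.60 for ELAVL1. The correlation was 0.32 for KHSRP, 0.42 for ZFP36L1 and 0.15 for ZFP36L2. Over the 8 genes the values ran from -0.70 for TIA1 to 0.70 for ZFP36. With offsets for GC content and length, the line log2 fold change over all treatments was -0.38 for ELAVL1 and 0.54 for KHSRP. Each correlation rests on 6 replicate pairs, drawn from the same libraries.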

How the data were processed

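Values were deposited for each symbol as estimated counts and as FPKM, which the authors scaled to length and library size. Per the submitters' processing notes, cutadapt 1.8, Bowtie2 2.2, TopHat2 2.1, Cufflinks 2.2, Cuffnorm and Cuffdiff were used with GRCh37/hg19. Of the count values 2.25% were not whole, none in the 8 genes; counts were rounded. RNA was depleted of ribosomal RNA and libraries were directional, per the labels' protocols.

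Genes were filtered with filterByExpr (minimum count 10), scaled with TMM and tested with edgeR 4.0.16's quasi-likelihood F-test (R 4.3.3). Line effects over all treatments had treatment as a covariate, and treatment effects over both lines had line; the others used 6 group means with 6 residual degrees of freedom. P-values were Benjamini-Hochberg adjusted over all genes tested, with a threshold of 0.05. Standard errors are the log2 fold change over the square root of F. Whether replicates came from separate cultures is known only from the submitters' word biological. The edgeR test was also run on counts simulated with the fitted dispersions, for some of the comparisons and none of those for H2O2. Such a run assumes the model of the test and does not check it.

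The members and lists were chosen with earlier results of these data known. From each list were named up to 2 called genes with the largest rise and 2 with the largest fall over all treatments, with at least 5 CPM, and any called for a treatment; for likeness, the 3 genes most correlated with ELAVL1. A gene named by this rule and a marker are not reported here. Alternatives were DESeq2 1.42.0, limma 3.58.1 on log2(FPKM + 1) and log2(FPKM + 0.1), other scalings and filters, a replicate block and leaving out each library; GC and length offsets and the neighbouring genes were added after seeing the data. On the log2(FPKM + pseudocount) scale, limma understates the change of low genes. Positions and sequences are from GENCODE 29 on GRCh38, not the authors' build; 90.8% of tested symbols matched.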

Additional observations from a re-analysis of the deposited data

How the results depend on the processing

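Over all treatments, 2 members were called under every alternative run; ELAVL1 stayed between -0.40 and -0.35 and KHSRP between 0.50 and 0.59 (log2). No member was called for a treatment or an interaction under any. ZFP36 was too low to be tested under the stricter CPM filter and in the limma fits with a filter. Within treatments the count of 2 called members depended on the setting. It was 1 in untreated cells with limma on log2(FPKM + 1), on log2(FPKM + 0.1) and without a filter, and 1 with HNE and 1 with H2O2 with limma without a filter. Leaving out 1 library at a time, it ran from 0 to 2 in untreated cells, from 1 to 2 with HNE and from 0 to 3 with H2O2. In the limma fits the call lost was that of KHSRP.

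Uncalled estimates near 0 changed sign. TIAL1 between lines was 0.02 with GC and length offsets, ZFP36L2 was 0.01 with library size alone and with the 3 limma fits, and HNRNPD for HNE was -0.01 with library size alone. Leaving out 1 library, the line value ran from -0.02 to 0.06 for HNRNPD, -0.31 to 0.08 for ZFP36 and -0.06 to 0.06 for ZFP36L2. For HNE it ran from -0.06 to 0.08 for HNRNPD and -0.13 to 0.05 for ZFP36L2. For H2O2 it ran from -0.06 to 0.01 for HNRNPD, -0.04 to 0.01 for TIA1 and -0.14 to 0.44 for ZFP36. The KHSRP interaction ran from -0.02 to 0.32 for HNE and from -0.05 to 0.25 for H2O2. The cause was not tested.

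The replicate numbers showed no common pairing of the samples. Over 15 pairs of groups the correlation of replicate differences ran from -0.45 to 0.51, with 6 above 0.1 and 7 below -0.1. Whether libraries shared a batch under another numbering was not tested. With the replicate block the ELAVL1 difference was -21.8 CPM (exact permutation p = 0.0312, the smallest of 64 arrangements), and the counts of called members did not change. At 4 to 16 counts per library, depth limits ZFP36.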
